A study of Mus musculus with 8 samples.

Results

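The NMDA receptor subunit genes Grin1, Grin2a, Grin2b, Grin2c, Grin2d and Grin3a were followed in RNA from the visual cortex of mice, layer IV. They were chosen by gene symbol, and are 6 of the 34980 genes in the count files. A read was counted in every isoform that it overlapped, so each gene is shown by 1 transcript, the one with the most counts summed over the 6 libraries. All 6 genes passed the filter on low counts that left 15841 genes for testing.

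Layer IV, the cortical layer that receives most input from the visual thalamus, was dissected by hand from B6D2 mice. Wild-type mice (Otx2 +/+) were taken at postnatal day 30 (P30) and at P100. Heterozygous mice, which the labels give as Otx2 +/- and the design text as Otx2 +/GFP, were taken at P30. Otx2 encodes a homeodomain transcription factor that reaches cortical neurons from the choroid plexus, and it is known for its part in the timing of the visual critical period. Tissue of 4 mice was pooled per condition and each group had 2 libraries. Nothing in the labels ties the duplicates to separate pools, so the p-values rest on a spread between libraries that may be technical. Of the 8 samples, the 2 from heterozygous mice at P100 were not analysed here.

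NMDA receptors are glutamate-gated channels that open only when the membrane is depolarised, and the calcium that they admit drives changes in synaptic strength. Each receptor joins obligatory GluN1 subunits (Grin1), which bind the co-agonist glycine or D-serine, with GluN2 subunits (Grin2a to Grin2d), which bind glutamate and set the speed of the current, or with GluN3 subunits (Grin3a). In cortex, GluN2B prevails early and GluN2A gains ground during postnatal life, a switch studied in visual cortex in connection with the critical period. GluN3A lowers calcium entry and is most abundant in young neurons.

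Grin1 transcripts differ by cassette exons, and 2 of these are shown because the counts of Grin1 isoforms below turn on them. Both lie in coding sequence on the minus strand of chromosome 2 (mm10) and are printed in lower case, 5′ to 3′. The N1 exon (chr2:25311343-25311405, 63 bases or 21 codons) adds a stretch to the extracellular amino-terminal domain. The C1 exon (chr2:25294438-25294548, 111 bases or 37 codons) adds a stretch to the cytoplasmic tail that is known to hold a signal for retention in the endoplasmic reticulum. Capitals in C1 mark a run of 3 arginine codons, at bases 88 to 96 of the exon, that belongs to this signal.
N1 exon: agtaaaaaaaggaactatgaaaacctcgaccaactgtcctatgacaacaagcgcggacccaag
C1 exon: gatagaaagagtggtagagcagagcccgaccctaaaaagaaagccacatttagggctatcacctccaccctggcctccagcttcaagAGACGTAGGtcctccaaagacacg

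A further site of 30 bases is shown because Egr transcription factors, which can bind it, are among the activity-regulated genes measured in the same libraries. It lies at chr2:25319164-25319193 (GRCm38.p6, minus strand), across the RefSeq start of Grin1, in a promoter window of 300 bases; the counted transcript starts 42 bases past the end of that window. Capitals mark the overlapping matches to the Egr motif GCGNGGGCG and to the Sp1 motif GGGCGG, both on the strand printed.
Grin1 start region: gcgtcaggaaGCGGGGGCGGtgggaggggt
The Egr motif was present, on either strand, in 5.55% of 32851 promoter windows of the same length, and the Sp1 motif in 35.7%. The promoter table held 3 of the 6 genes. Grin2c had no Egr match and 3 Sp1 matches, and Grin2d had neither in its window. A match describes the letters only, and binding was not measured.

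Gene-level totals ran from 11016841 to 15308781 counts per library. A list of 10 layer IV markers was followed, of which Rorb, a transcription factor gene, stood at 497 to 581 CPM in every library. Rorb alone does not check the layer. Of the 10, 3 were lower in heterozygous than in wild-type libraries at P30, and 4 were lower than in wild-type P100, as given below. CPM values here are gene counts scaled to the library total after adjustment by TMM factors. The cerebellar gene Gabra6 had 0 or 1 count per library, but the list of 8 cerebellar granule cell markers that holds it summed to 26.3 to 35.0 CPM. Of the 4 tested, Zic1 was higher in heterozygous than in wild-type libraries at P30 (25%, against 3.23% of all genes in either direction). Cbln1 was higher in heterozygous P30 than in wild-type P100 (25%, against 5.10%), and 0 passed with age. Otx2 gave no check of the genotype labels, since it had 0 counts in 5 libraries and 73 in heterozygous replicate 2. That library also held 8966 counts of Ttr, a choroid plexus transcript, against 0 or 1 count elsewhere, and its summed choroid plexus markers stood at 629.5 CPM against 2.1 to 4.22 CPM. The wild-type libraries had 0.264 to 0.639 CPM of Xist and the heterozygous ones 785 and 924 CPM, while Ddx3y had 146 to 156 CPM in the former and 1.04 and 2.48 CPM in the latter. The genotype and the sex of the pools therefore cannot be told apart. In dissected tissue, fewer cells of a type and less RNA per cell cannot be told apart either.

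The order of the levels was taken per kilobase of transcript, since longer transcripts collect more reads. Grin2b (89.2 ± 9.71 CPM per kb, SD over the 6 libraries) and Grin1 (86.0 ± 11.2) led. Their ranges overlapped, 74.6 to 99.3 against 74.4 to 99.9 CPM per kb, so these neighbours in the order did not differ beyond their spread. Grin2a followed at 28.3 ± 2.11 CPM per kb, apart from its neighbours in every library. Grin3a (8.57 ± 1.17) and Grin2c (6.21 ± 0.884) came next with ranges that overlapped, and Grin2d was lowest at 0.732 ± 0.131 CPM per kb. Lengths are those of GENCODE M21 models, which may differ from the annotation used for counting, so these values are approximate. The remaining family gene, Grin3b, had 0 and 13 counts at wild-type P30 and 3 or 4 in each other library, and did not pass the filter.

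**Figure D1:**
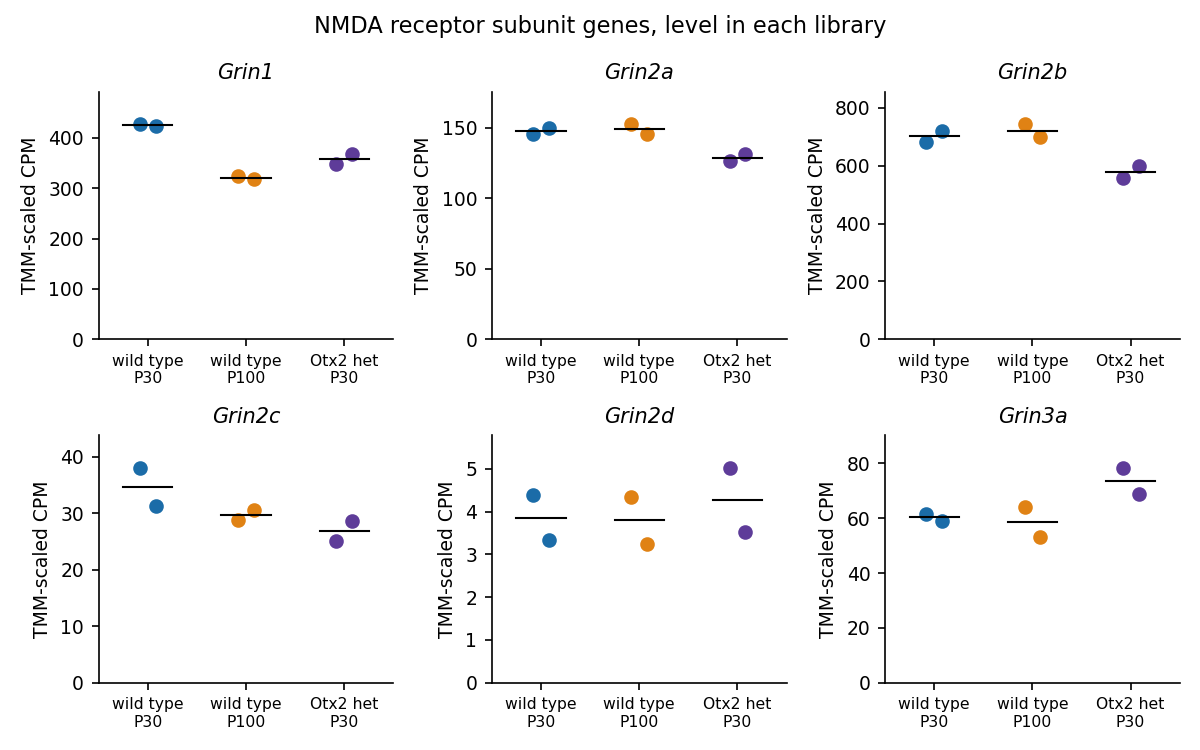
Level of each NMDA receptor subunit gene in each library, in TMM-scaled CPM (y axes start at 0 and differ between panels; points are libraries, lines are means of 2). Grin1 stood at 427 and 424 CPM at wild-type P30, against 324 and 318 CPM at wild-type P100, while Grin2b was lowest in the heterozygous libraries at 558 and 600 CPM.

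The comparison of wild-type P100 with wild-type P30 asked how layer IV differs between an age after the critical period and one near its peak. Grin1 fell, and no other subunit gene passed the test: 1 of 6 was lower and 0 were higher. Over all genes tested, 4.54% were lower and 7.54% passed in either direction at this threshold (adjusted p under 0.05). The median log2 difference was −0.02 over the 6 subunit genes and 0.00 over all genes.

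Grin1 (ENSMUSG00000026959, chromosome 2, 25291181 to 25319187, minus strand, mm10; counted by the 21-exon coding transcript Grin1-204) encodes the subunit that every NMDA receptor needs. In the P30 libraries it had 4679 and 6095 counts, or 427 and 424 CPM. At wild-type P100 it had 4477 and 3615 counts, or 324 and 318 CPM. Both older libraries lay well below both younger ones, and the 2 libraries of each age were close together. The level was 1.32-fold lower at P100 (log2 difference −0.41, SE 0.064, 95% interval −0.54 to −0.27, edgeR quasi-likelihood adjusted p = 0.00198). This call was kept under all 17 alternatives run, with adjusted p from 9.03e-07 to 0.0281. An antisense gene, Grin1os, overlaps 30.6% of the exon bases of the counted transcript, and the use of strand in counting was not given in the sources used here. Grin1os itself was counted at 33 to 69 reads per library.

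No GluN2 gene passed the test with age. Grin2a (chromosome 16, 9567898 to 9995560, minus strand), the subunit of fast, mature synaptic receptors, stood at 146 and 150 CPM at P30. It stood at 153 and 146 CPM at P100. The groups overlapped (log2 difference 0.01, SE 0.069, 95% interval −0.14 to 0.16, edgeR adjusted p = 0.933). Grin2b (chromosome 6, 135713233 to 136173511, minus strand), the subunit of slower receptors that prevails in young cortex, stood at 683 and 721 CPM at P30 and at 743 and 700 CPM at P100. These groups overlapped as well (log2 difference 0.04, SE 0.068, 95% interval −0.11 to 0.18, edgeR adjusted p = 0.785). The sign of both differences turned when 1 library was left out, wild-type P30 replicate 1 or wild-type P100 replicate 1, with values near 0 throughout.

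Grin2c (chromosome 11, 115249169 to 115267243, minus strand), best known from cerebellar granule cells and from astrocytes, stood at 38.1 and 31.3 CPM at P30. It stood at 28.7 and 30.5 CPM at P100. Both older libraries lay below both younger ones, by less than the gap between the P30 replicates, and the difference did not pass (log2 −0.22, SE 0.12, 95% interval −0.48 to 0.04, edgeR adjusted p = 0.296). Leaving out replicate 1 of the P30 group gave −0.08, and leaving out its replicate 2 gave −0.36. Grin2d (chromosome 7, 45831883 to 45878378, minus strand), found mostly in interneurons and early in life, had 48 counts in each P30 library and 60 and 37 at P100. At this depth its interval ran from −0.58 to 0.59 on the log2 scale (edgeR adjusted p = 0.996), so a moderate change was not detectable. Grin3a (chromosome 4, 49661611 to 49845744, minus strand), the gene of the subunit that dampens calcium entry, stood at 61.6 and 59.0 CPM at P30. It stood at 64.1 and 53.1 CPM at P100, on both sides of the younger libraries (log2 difference −0.04, SE 0.105, edgeR adjusted p = 0.868).

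Grin1 and Grin2c were the 2 of 6 genes whose groups did not overlap by age. That was so for 51.2% of all genes tested, a larger share than among the 6.

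**Figure D2:**
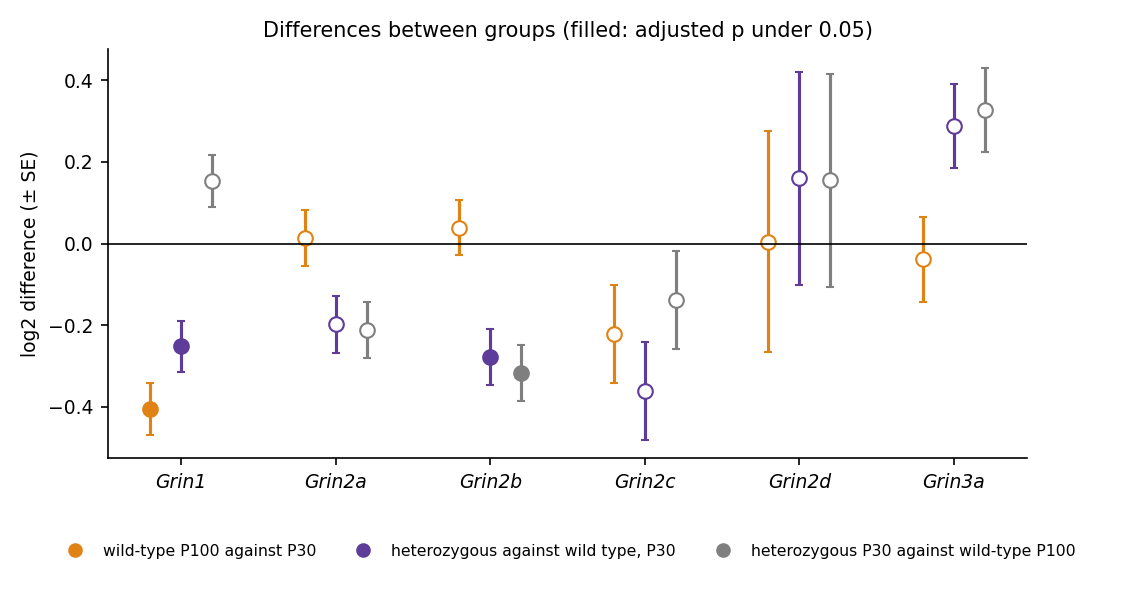
Log2 difference between groups for each subunit gene (points, with the SE as bars; filled points have an edgeR adjusted p under 0.05 over all genes tested). Grin1 lies at −0.41 for age and −0.25 for genotype, and Grin2b lies at 0.04 for age and −0.28 for genotype; the comparisons share libraries.

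The comparison of heterozygous with wild-type cortex at P30 asked what differs when 1 Otx2 copy is lost. Grin1 and Grin2b fell, and no other subunit gene passed the test: 2 of 6 were lower and 0 were higher. Of all genes tested, 2.32% were lower and 3.23% passed in either direction. Groups did not overlap for 5 of the 6 genes, against 48.9% of all genes. The median log2 difference was −0.22 over the 6 genes and 0.00 over all genes. The wild-type P30 libraries serve in both comparisons, so a chance deviation of these libraries enters both.

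In the heterozygous libraries Grin2b had 8329 and 9220 counts, or 558 and 600 CPM. Both values lay below the 683 and 721 CPM of the wild-type libraries. The level was 1.21-fold lower (log2 difference −0.28, SE 0.068, 95% interval −0.42 to −0.13, edgeR adjusted p = 0.0399). Grin1 had 347 and 367 CPM in these libraries, against 427 and 424 CPM, which was 1.19-fold lower (log2 difference −0.25, SE 0.063, 95% interval −0.39 to −0.12, edgeR adjusted p = 0.0469). Both calls lay close to the threshold. Grin1 lost its call in 11 of 17 alternatives, with adjusted p from 0.0144 to 0.414, and Grin2b lost it in 7, with adjusted p from 0.00131 to 0.434; neither changed sign. The Grin1 call was lost without any 1 of the 6 libraries (adjusted p from 0.0597 to 0.414), and that of Grin2b without either heterozygous library or with wild-type P30 replicate 2 left out (adjusted p = 0.161 for the latter). Without heterozygous replicate 2, the library with choroid plexus transcripts, Grin1 differed by −0.29 (edgeR adjusted p = 0.121) and Grin2b by −0.33 (edgeR adjusted p = 0.0813). Without heterozygous replicate 1 the differences were −0.21 (adjusted p = 0.414) and −0.23 (adjusted p = 0.390).

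Grin2a had 126 and 132 CPM in the heterozygous libraries, below the 146 and 150 CPM of the wild-type ones. The groups did not overlap, but the difference did not pass over all genes (log2 −0.20, SE 0.069, 95% interval −0.35 to −0.05, edgeR adjusted p = 0.151). Grin2c stood at 25.1 and 28.7 CPM against 38.1 and 31.3 CPM, again with no overlap and no call (log2 −0.36, SE 0.119, 95% interval −0.62 to −0.10, edgeR adjusted p = 0.126). Leaving out wild-type P30 replicate 1 gave −0.22, and leaving out replicate 2 of that group gave −0.50. Grin3a went the other way, at 78.4 and 68.9 CPM against 61.6 and 59.0 CPM. Its values in the heterozygous libraries were the highest of the 6 libraries, without passing the test (log2 0.29, SE 0.103, 95% interval 0.07 to 0.51, edgeR adjusted p = 0.159). Grin2d had 75 and 54 counts against 48 and 48, and its CPM overlapped between the groups (log2 0.16, SE 0.26, 95% interval −0.40 to 0.72, edgeR adjusted p = 0.804).

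Age and genotype were set against each other by testing heterozygous P30 against wild-type P100 directly. Grin2b was lower in the heterozygous libraries, at 558 and 600 against 743 and 700 CPM, which was 1.25-fold (log2 difference −0.32, SE 0.068, 95% interval −0.46 to −0.17, edgeR adjusted p = 0.0157). It was the 1 member of 6 that was lower, and 0 were higher, while 2.66% of all genes were lower and 5.10% passed in either direction. The call was lost in 4 of 17 alternatives, among them without wild-type P100 replicate 1 (adjusted p = 0.114) and without heterozygous replicate 1 (adjusted p = 0.191). Grin1 stood at 347 and 367 against 324 and 318 CPM, higher in both heterozygous libraries but not past the test (log2 0.15, SE 0.064, 95% interval 0.02 to 0.29, edgeR adjusted p = 0.200). Whether the Grin1 difference from wild-type P30 was larger for age than for genotype was therefore not shown, whereas the same test separated the Grin2b differences. Groups did not overlap for 5 of 6 genes, against 50.5% of all genes. Grin3a, at 78.4 and 68.9 against 64.1 and 53.1 CPM, differed by 0.33 (SE 0.103, 95% interval 0.11 to 0.55, edgeR adjusted p = 0.0900; 0.20 without wild-type P100 replicate 2), and Grin2a by −0.21 (SE 0.069, edgeR adjusted p = 0.103).

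The Grin2a to Grin2b ratio, the measure of the developmental subunit switch, needs no library scaling. The counts gave 0.213 and 0.208 at wild-type P30, and 0.205 and 0.209 in the older wild-type libraries. The 2 ages overlapped, with a mean of 0.211 ± 0.00383 (SD, n = 2) at P30 and 0.207 ± 0.00235 (SD, n = 2) at P100 (log2 difference −0.03, two-sided exact permutation p = 0.667). The heterozygous libraries gave 0.226 and 0.219, with a mean of 0.223 ± 0.00496 (SD, n = 2), and both lay above all 4 wild-type libraries. The log2 difference was 0.08 from wild-type P30 and 0.11 from wild-type P100 (two-sided exact permutation p = 0.333 for each, the smallest that 2 libraries against 2 can give). Counted over all transcripts, the heterozygous values of 0.192 and 0.191 lay between the 0.197 and 0.182 of wild-type P30 but above the 0.177 and 0.178 of wild-type P100 (log2 difference 0.11). The higher ratio thus depended on the choice of transcript against wild-type P30, and with the sum not against wild-type P100. Per kilobase the ratio was 0.306 to 0.337 over the 6 libraries, so Grin2b exceeded Grin2a in each of them.

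The ratios of Grin1 to Grin2b and to Grin2a counts were lower in both P100 libraries than in the other 4. The Grin1 to Grin2b ratio was 0.625 and 0.587 at P30 and 0.436 and 0.455 at P100 in wild-type mice. In the heterozygous libraries it was 0.622 and 0.612, inside the range of wild-type P30. The log2 difference of the means was −0.45 for age (two-sided exact permutation p = 0.333, the smallest possible) and 0.03 for genotype (two-sided exact permutation p = 1.0). Of the length-scaled sum over the 6 genes, Grin1 took 42.1% and 41.3% in the P30 libraries of wild-type mice, 34.3% and 35.3% in the P100 libraries, and 41.1% and 41.3% in the heterozygous libraries. The sum itself was 237 and 240.2 CPM per kb in the wild-type libraries of P30, 221 and 211 in those of P100, and 198 and 208 in the heterozygous libraries. The heterozygous libraries thus held a lower summed level with the Grin1 share of wild-type P30, while the P100 libraries held a lower Grin1 share. Within the sum, Grin3a was higher in the heterozygous libraries than at wild-type P30, and the Grin2d groups overlapped. The Grin1 to Grin2a ratio of the heterozygous libraries, 2.75 and 2.79, lay below the 2.93 and 2.82 of wild-type P30. These ratios other than Grin2a to Grin2b were chosen after the values of the genes had been seen, and their permutation tests cannot pass 0.05.

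**Figure D3:**
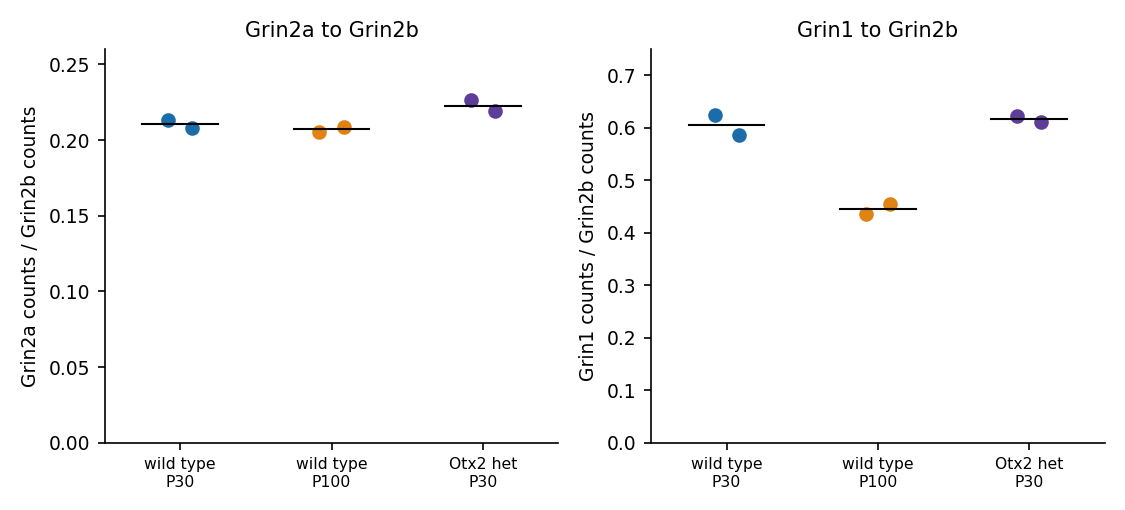
Ratio of Grin2a to Grin2b counts (left) and of Grin1 to Grin2b counts (right) in each library (points; lines are means of 2; both axes start at 0). The left ratio stays between 0.205 and 0.226 in all 6 libraries, and the right ratio is 0.436 and 0.455 at wild-type P100 against 0.587 to 0.625 in the other 4 libraries.

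Grin2a and Grin2b followed each other closely, and the replicate of a group with more Grin2a also had more Grin2b in all 3 groups. Across the 6 libraries their log2 CPM had a Pearson r of 0.997, a description of 6 points that share library scaling. Grin1 had r = 0.107 with Grin2a and 0.0569 with Grin2b over the same libraries, and Grin3a had r = −0.782 and −0.797 with them. Genes whose pattern was most like that of Grin1, among 9630 genes with a mean of 10 CPM or more, were Celf1 (r = 0.995), Ralb (r = 0.993) and Egr4 (r = 0.992), and 133 genes reached 0.95. Among those most like Grin2a were Synj2 (r = 0.995) and Neat1 (r = 0.991). Among those most like Grin2b were Whsc1l1 (r = 0.992) and Mllt1 (r = 0.991), with 58 genes at 0.95 or more.

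The Grin1 difference with age was looked for along the gene through its 14 counted transcripts. The 8 coding transcripts longer than 3 kb share nearly all of their reads and gave log2 ratios of the group means from −0.41 to −0.40 for age. In the authors' deposited table of this comparison, Grin1-204 had a log2 fold change of −0.40 and an adjusted p of 0.00966. Short transcripts from the middle and 3′ part of the gene also stood lower at P100. Grin1-213 gave 109 and 100.3 CPM at wild-type P30 and 68.5 and 74.6 CPM at P100, and Grin1-210 gave 59.8 and 53.9 CPM against 41.1 and 38.9 CPM. The authors' deposited table lists Grin1-213 with an adjusted p of 0.000985 and Grin1-210 with 0.0244. Grin1-209, another of these short transcripts, gave 54.2 and 53.1 against 44.7 and 45.1 CPM, and its adjusted p there was 0.653.

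For 5′ transcripts of Grin1 that contain intron sequence, the sign of the age difference depended on which wild-type P30 library was kept. Grin1-214 (chromosome 2, 25310801 to 25319126) gave 66.6 and 90.3 CPM at wild-type P30 and 73.3 and 75.6 CPM at P100. Grin1-211 (25314401 to 25319163) gave 50.1 and 70.1 against 57.1 and 62.3 CPM. In both, the P100 libraries lay between the P30 libraries (log2 ratio of the means −0.08 for Grin1-214 and −0.01 for Grin1-211), and the authors' deposited table gives both an adjusted p of 1.0. Without wild-type P30 replicate 1 the ratios were −0.28 and −0.23, and without wild-type P30 replicate 2 they were 0.16 and 0.25. These values without 1 library were added after the data had been seen. Wild-type P30 replicate 1 stood apart for 5′ transcripts of Grin1 and Grin2b, as a percentage of the counted transcript. Its Grin1-211 reads were 11.7% of its Grin1-204 reads, against 16.0% to 19.6% in the other 5 libraries. Grin2b-204, a short 5′ transcript of Grin2b, was 13.7% of the counted Grin2b transcript in the same library and 17.5% to 18.3% in the others. The 5′ transcripts Grin2a-203 and Grin3a-203 were 29.1% and 52.1% in that library, inside the 23.0% to 30.9% and 49.4% to 53.9% of the others. The part of wild-type P30 replicate 1 in the Grin1 difference was not tested by transcript. Without that library the Grin1 age difference was −0.40.

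**Figure D4:**
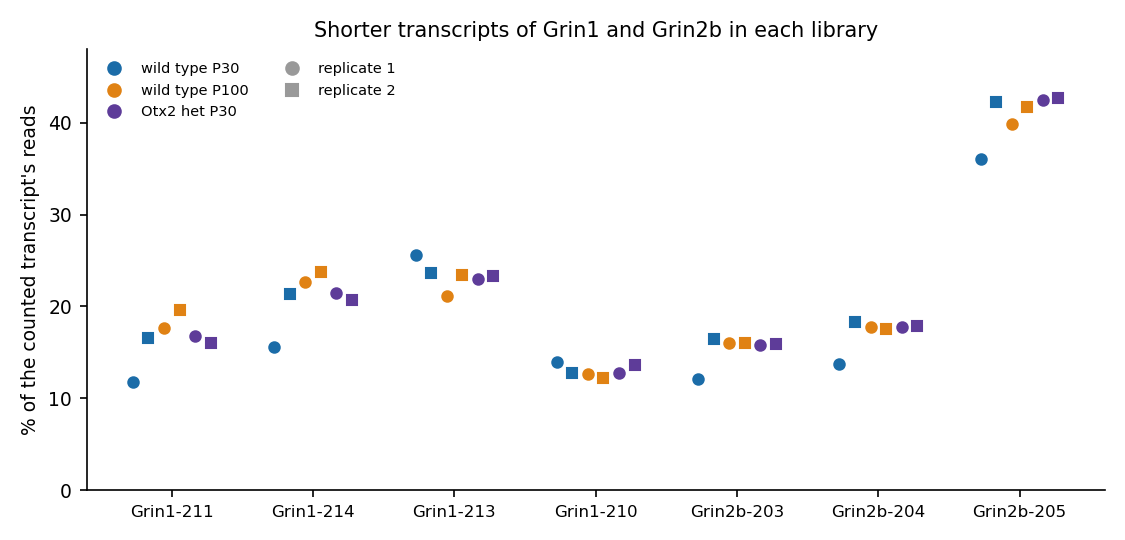
Reads of shorter Grin1 and Grin2b transcripts as a percentage of the reads of the counted transcript of the gene, in each library (colour for group, circle or square for replicate 1 or 2). Wild-type P30 replicate 1 is lowest for Grin1-211 (11.7%), Grin1-214 (15.6%) and Grin2b-204 (13.7%), all at the 5′ end, and not for the 3′ transcript Grin1-210.

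For genotype, the 8 long Grin1 transcripts gave log2 ratios of −0.25, and Grin1-213 gave 79.9 and 85.7 CPM against 109 and 100.3 CPM. In the authors' deposited table of that comparison no transcript of the 6 genes was past an adjusted p of 0.05: Grin1-204 had 0.264, Grin2b-202 had 0.119 and Grin3a-202 had 0.312. Their log2 fold changes there were −0.25, −0.27 and 0.29, close to the values above, which come from the same counts. Grin2a-203, a transcript with a retained intron at the 5′ end of Grin2a, gave 42.5 and 46.4 CPM at wild-type P30, 35.1 and 36.7 CPM at P100, and 30.6 and 37.3 CPM in the heterozygous libraries. It was lower in both groups than at wild-type P30. The authors' deposited tables give it an adjusted p of 0.435 for age and 0.124 for genotype. The counted transcript Grin2a-202 overlapped between the ages but was also lower without overlap for genotype.

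The use of the Grin1 cassettes was read from pairs of transcripts that differ by 1 part, whose counts differ by the reads that lie only in that part. The N1 pairs also differ at the 5′ start, where the transcript without N1 has 25 further bases. Their N1 values are therefore net of any reads that lie only in those bases. Such reads were few, because a read that also touches a neighbouring exon is counted in both transcripts. The N1 exon had 12 and 10 reads at wild-type P30, 12 and 11 at P100, and 10 and 9 in the heterozygous libraries. This is 1.60 to 3.04 reads per 1000 Grin1 reads, and the 95% exact binomial intervals overlapped throughout (lowest bound 0.730, highest 5.44). Both P100 values (2.68 and 3.04) lay above those of the other 4 libraries, the nearest at 2.56, with a two-sided exact permutation p of 0.333 for age, the smallest possible. The alternative C2 part of the last exon (chr2:25292129-25292484) had 59 to 119 reads, or 16.3 to 22.0 per 1000 Grin1 reads, with groups that overlapped in all 3 comparisons.

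The C1 exon, with the retention signal printed above, had its lowest read shares in the heterozygous libraries. It had 41 and 63 reads at wild-type P30, 39 and 38 at P100, and 26 and 42 in the heterozygous libraries. Per 1000 Grin1 reads this is 8.76 and 10.3, 8.71 and 10.5, and 5.02 and 7.45. Both heterozygous values lay below all 4 wild-type values. The intervals were 3.28 to 7.34 and 5.37 to 10.1 in the heterozygous libraries, against 6.30 to 11.9 and 7.95 to 13.2 at wild-type P30 and 6.20 to 11.9 and 7.45 to 14.4 at P100. That of heterozygous replicate 1 ended below those of wild-type P30 replicate 2 and wild-type P100 replicate 2, and the other pairs of a heterozygous with a wild-type library overlapped. The means were 6.23 ± 1.72 and 9.55 ± 1.11 (SD, n = 2 each), with a two-sided exact permutation p of 0.333, the smallest possible. Intervals cover counting error only, and these values are not a percentage of transcripts that include the exon.

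**Figure D5:**
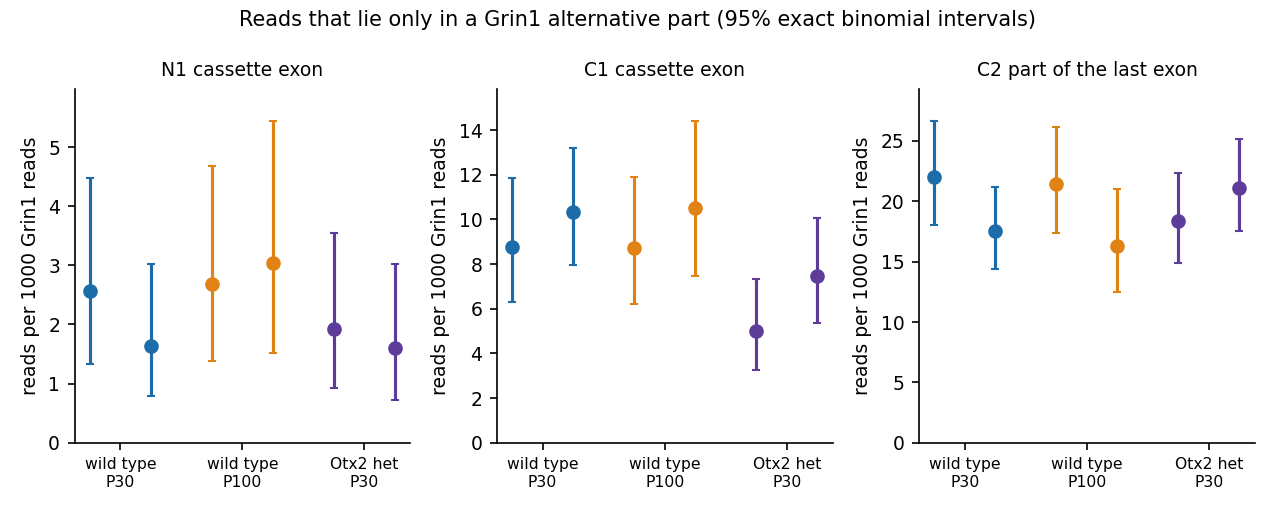
Reads that lie only in an alternative part of Grin1, per 1000 reads of Grin1-204, in each library (points, with 95% exact binomial intervals as bars and axes that start at 0). N1 values are net of any reads only in the 25 further 5′ bases of the transcript without N1. For C1 the heterozygous libraries stand at 5.02 and 7.45 and the 4 wild-type libraries at 8.71 to 10.5; for N1 and C2 the intervals of all libraries overlap.

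The proteins that hold NMDA receptors in the postsynaptic density were followed with a list of 19 scaffold genes, all tested. With age 5 fell and 0 rose, 26.3% of the list against 4.54% of all genes lower (median log2 difference −0.19 against 0.00). Homer1, which links glutamate receptors to calcium stores and has an activity-induced short form, stood at 916 and 1122 CPM at P30 and at 565 and 444 CPM at P100, 2.02-fold lower (edgeR adjusted p = 9.50e-05). Homer1 is also counted among the activity-regulated genes below, and its long and short forms were not tested apart. Shank1, a master scaffold of the density, was 1.41-fold lower (edgeR adjusted p = 0.00522). Dlg4, which encodes PSD-95, the direct partner of GluN2 tails, stood at 364 and 417 against 317 and 317 CPM, 1.23-fold lower (edgeR adjusted p = 0.0281). For genotype 4 fell and 0 rose, 21.1% against 2.32% of all genes lower (median −0.08), among them Homer1 (1.91-fold, edgeR adjusted p = 0.000309), Dlgap3 (1.27-fold, adjusted p = 0.0158) and Dlgap2 (1.32-fold, adjusted p = 0.0293). Between heterozygous P30 and wild-type P100, 0 of the 19 passed in either direction.

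With age, other glutamate receptor genes and genes of glutamate supply passed the test at about the share of all genes. Of 11 AMPA and kainate receptor genes, 1 fell and 0 rose with age (9.09%, against 7.54% of all genes in either direction), and 0 passed for genotype. The 1 was Grik5, a kainate receptor subunit gene, at 85.0 and 85.8 CPM at P30 and 68.6 and 67.8 CPM at P100 (1.25-fold lower, edgeR adjusted p = 0.0279). Between heterozygous P30 and wild-type P100, Grik3, another kainate receptor subunit gene, was 1.40-fold higher in the heterozygous libraries (edgeR adjusted p = 0.0318), at 90.6 and 85.6 against 73.0 and 52.1 CPM. It was the 1 of 11 that passed there (9.09%, against 5.10% of all genes in either direction). Of 13 tested genes for co-agonist and glutamate supply, only Slc17a7 passed with age (7.69%). It encodes the vesicular glutamate transporter VGLUT1 and stood at 569 and 550 against 440.5 and 440.04 CPM (1.27-fold lower, edgeR adjusted p = 0.00465). For genotype 0 of the 13 passed. Slc17a7 was the 1 gene of the 13 that was higher in heterozygous P30 than in wild-type P100 (7.69%, against 386 of all 15841 genes).

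Among 25 genes of calcium and kinase signalling, 1 rose and 2 fell with age (12%, against 7.54% of all genes in either direction), and 0 passed for genotype. Rasgrf1, a Ras exchange factor activated by calcium through NMDA receptors, rose 1.20-fold (edgeR adjusted p = 0.0248). Fyn, a Src-family kinase that phosphorylates GluN2B, stood at 185 and 179 CPM at P30 and at 147 and 131 CPM at P100 (1.31-fold lower, edgeR adjusted p = 0.00770), and Ppp3r1, the regulatory calcineurin subunit, was 1.20-fold lower (adjusted p = 0.0293). Between heterozygous P30 and wild-type P100, 3 of the 25 were lower and 0 higher (12%, against 2.66% of all genes lower). These were Ptpn5, which encodes the phosphatase STEP that acts on GluN2B (1.35-fold, edgeR adjusted p = 0.00689), Rasgrf1 (1.20-fold, adjusted p = 0.0272) and the kinase gene Ptk2b (1.21-fold, adjusted p = 0.0278). Among 15 trafficking genes, the reelin pathway adaptor gene Dab1 rose 1.28-fold (edgeR adjusted p = 0.0137) and the reelin receptor gene Vldlr fell 1.23-fold (adjusted p = 0.0195), which is 13.3% of the list against 7.54% of all genes. None of these 15 passed for genotype. Against wild-type P100, 2 of the 15 were lower in the heterozygous libraries (13.3%, against 2.66% of all genes): Dab1 (1.33-fold, edgeR adjusted p = 0.00701) and Kif17, a kinesin gene whose product carries GluN2B (1.39-fold, adjusted p = 0.0453).

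Markers of activity and of other cells moved with the same groups. Of 20 activity-regulated genes, 19 fell and 0 rose in each of the comparisons with wild-type P30 (95%, against 4.54% and 2.32% of all genes). Of the same 20, 6 were higher in heterozygous P30 than in wild-type P100 (30%, against 386 of all 15841 genes). The summed level of the 20 was 3710 and 4519 CPM at wild-type P30, 1223 and 1194 at P100, and 1172 and 1484 in the heterozygous libraries. Egr1 stood at 333 and 468 CPM, 113 and 95.5 CPM, and 152 and 201 CPM in the same order. Its product can bind the motif printed above, but binding at Grin1 was not measured. Of 10 oligodendrocyte markers, 9 fell with age (90%, against 4.54% of all genes) and 10 for genotype (100%, against 2.32%), with 0 higher in either. Of the same 10, 6 were higher in heterozygous P30 than in wild-type P100 (60%, against 386 of 15841 genes). The sum of the 10 was 3315 and 3190 CPM at wild-type P30, 1851 and 1563 at P100, and 2291 and 2352 in the heterozygous libraries. Of 7 oligodendrocyte precursor markers, 5 fell with age (71.4%, against 4.54% of all genes) and 0 passed for genotype. Among these 7, 3 were higher in heterozygous P30 than in wild-type P100 (42.9%, against the same 386 of 15841 genes).

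Neuronal markers were counted in the same way. Of 8 excitatory neuron markers, 2 fell with age, Nrgn and Slc17a7 (25%, against 4.54% of all genes), and 0 passed for genotype. Only Slc17a7 was higher in heterozygous P30 than in wild-type P100 (12.5%, against 386 of all 15841 genes). The sum of the 8 ran from 2983 to 3519 CPM at wild-type P30, from 2760 to 2898 at P100 and from 2872 to 3133 in the heterozygous libraries. Of 10 layer IV markers, 1 rose and 2 fell with age (30%, against 7.54% of all genes in either direction). For genotype 3 fell, Thsd7a, Unc5d and Whrn (30%, against 2.32% of all genes lower, median of the list −0.27). Of the same 10, 4 were lower in heterozygous P30 than in wild-type P100 (40%, against 2.66%). The sum of the 10 was 2330 and 2518 CPM at wild-type P30, 2209 and 2264 CPM at P100, and 2074 and 2174 CPM in the heterozygous libraries. Rorb itself did not differ past the test (edgeR adjusted p = 0.964 for age and 0.545 for genotype). Of 12 interneuron markers 1 rose with age and 1 for genotype (8.33%, against 7.54% and 3.23% of all genes in either direction), and their sum ran from 1112 to 1307 CPM over the 6 libraries. Of 11 astrocyte markers 3 fell with age (27.3%, against 4.54% of all genes) and 2 for genotype (18.2%, against 2.32%). Of the same 11, 1 was higher in heterozygous P30 than in wild-type P100 (9.09%, against 386 of 15841 genes). The part of these cell and activity markers in the Grin1 and Grin2b differences was not tested.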

How the data were processed

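Total RNA of hand-dissected layer IV was sequenced, per the labels. The deposited counts are the authors' raw read counts for 95533 transcripts, per the file headers. Bowtie, HTSeq, DESeq 1.8.3 and mm10 are named in the submitters' processing notes; settings, strand use and annotation release are not given in the sources used here. Tables that the authors deposited hold signal values (group means), a fold ratio, a log2 ratio, p-values and a variance score per transcript, and were used only where named. Transcripts without a gene (9669, 13.96% of counts) were left out.

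Each gene was represented by its transcript with the most counts. Genes with low counts were removed with filterByExpr (minimum count 10, total 15), and TMM-scaled counts were tested with edgeR 4.0.16 in R 4.3.3 (quasi-likelihood, 1 factor of 3 groups over 6 libraries, 3 residual degrees of freedom). P-values were adjusted by Benjamini-Hochberg over 15841 genes. The procedure was tested on simulated data for age (15619 genes): 66.7%, 72.3% and 95.4% of genes changed 1.5-, 2- and 4-fold were recovered. Positions come from GENCODE M21 and promoters from RefSeq (GRCm38.p6). Gene-level totals, with 1 transcript per gene, ran from 11016841 to 15308781 counts per library. With 2 libraries per group the tests rest on a spread shared over groups and genes. Alternatives were other scalings and filters, DESeq2 1.42.0, limma-voom 3.58.1, 4 libraries only, summed or median transcripts, a replicate block and leaving out each library.

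The members, lists and tests were chosen with earlier results of these data known. Named were the 6 members, up to 4 called genes per list with the smallest p in the age and genotype comparisons, and the 3 genes most correlated with Grin1, Grin2a and Grin2b. Some genes that this rule names are not reported here. Egr1, Rorb, Grin3b, single transcripts, the check and marker genes and the genes called between heterozygous P30 and wild-type P100 were named outside this rule, after their values were seen.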

Additional observations from a re-analysis of the deposited data

How the results depend on the processing

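With age, 1 of the 6 subunit genes, Grin1, was called under all 17 alternatives. For genotype the count of 2 became 1 with upper-quartile scaling and 0 with library totals only, with only the 4 libraries compared, and with the sum or the median over transcripts; it ran from 0 to 1 when 1 library was left out. For heterozygous P30 against wild-type P100 the count of 1 became 2 with no filter and 2 with the replicate block, both by adding Grin3a (edgeR adjusted p = 0.0210 and 0.0371), and 0 with the sum or the median over transcripts; it ran from 0 to 1 when 1 library was left out. The causes were not tested. Without a library, a group of 1 is assumed to vary like the others.

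Uncalled differences near 0 changed sign. For age these were Grin3a with library totals (0.00568); Grin2a with the sum over transcripts (−0.0233); and Grin2d with DESeq2 (−0.00955), the sum (−0.0503), the median (−0.000725) and the replicate block (−0.0265). Leaving out 1 library gave age differences from −0.0212 to 0.0472 for Grin2a, −0.00747 to 0.0841 for Grin2b, −0.231 to 0.197 for Grin2d and −0.186 to 0.0895 for Grin3a. The Grin2d difference ran from −0.119 to 0.395 for genotype and from −0.123 to 0.392 against wild-type P100. Without 1 library Grin2c ran from −0.363 to −0.0812 for age, −0.500 to −0.219 for genotype and −0.239 to −0.0446 against wild-type P100, and Grin3a from 0.192 to 0.379 for genotype and 0.200 to 0.474 against wild-type P100; none of these passed.

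The log2 Grin2a to Grin2b ratio moved for age to −0.0939 with the sum and −0.0816 with the median over transcripts, for genotype to 0.0151 and −0.0434, and against wild-type P100 to 0.0383 with the median. Over all genes, called counts ran from 118 to 764 higher and 233 to 1096 lower for age, and from 52 to 392 and 129 to 728 for genotype.

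The labels do not say whether equal replicate numbers pair the libraries. Differences between the 2 replicates of a group, over 15841 genes, correlated at −0.00409 between wild-type P30 and wild-type P100. The correlation was 0.100 between wild-type P30 and heterozygous P30, and −0.000315 between wild-type P100 and heterozygous P30. These correlations cannot decide whether libraries shared a batch or a pool. The replicate block left 1 call for age and 2 for genotype.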
